A study of Mus spretus with 8 samples.

Results

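The genes of glutathione, thioredoxin and peroxide defence were followed in the livers of male mice of the inbred Mus spretus strain SPRET/EiJ. The group was named by gene symbol and held 42 genes, listed by function but with earlier results of these data known. Of these, 39 had at least 1 probe among the 22471 named genes of the array, with 55 probes in all, and Ggt1, Prdx5 and Prdx6 were not analysed here. Each gene is described by its probe with the highest mean over the 8 arrays. The DDE group was 4 mice fed Harlan diet that carried p,p'-DDE (450 mg/kg) in corn oil for 30 days, and the control group was 4 mice fed the same diet with corn oil alone for that time. All mice were 7 weeks old at the start. p,p'-DDE is the long-lived breakdown product of the insecticide DDT. Liver RNA of each mouse was measured on its own 1-colour array, so the p-values rest on the spread between mice within both groups, 4 mice each.

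Glutathione is the main small thiol of liver cells and is built from cysteine, glutamate and glycine. Glutathione peroxidases, peroxiredoxins and catalase break down peroxides, while glutathione reductase and thioredoxin reductases return the spent thiols to their active form with NADPH. Many of these genes are switched on by the transcription factor NRF2 (gene Nfe2l2), which the adaptor KEAP1 sends for destruction until oxidants or electrophiles modify it. The 14 well-known NRF2 targets of the group are therefore set beside the other genes of the group.

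The values are log2 signals, as deposited, on a scale that ended at 16 on every array. The background level, set on each array from receptor genes of smell, ran from 7.55 to 7.84, and 39.6% to 46.9% of the 42957 probes exceeded it. A spot is called stained where the spots around it deviated, in the median, by more than 0.3 in either direction from their usual values. This is a rule on the values and not a reading of images. Spots called stained were found on every array and made up between 0.521% of the spots (DDE liver 1) and 9.52% (control liver 4). Of the 312 values of the 39 genes, 18 in 16 genes lay on stained spots. With stained values left out, control liver 4 gave the lowest control value for 27 of the 39 genes, and also for 67.6% of the 8477 named genes that were above background on all 8 arrays. All 10 hepatocyte markers were above background on all 8 arrays. The summed signal of 7 red blood cell markers ran from 77776 to 158496 in DDE livers and from 58162 to 128581 in control livers, with 0 of 7 past the test. The summed signal of 10 macrophage markers ran from 6716 to 10927 in DDE livers and from 7132 to 16381 in control livers. Over the 6 of these free of stains it was 4069 to 5382 in DDE livers and 4978.5 to 9248 in control livers. For 11 markers of other leukocytes the range was 3712 to 6475 in DDE livers and 6918 to 17570 in control livers. Over the 6 of these 11 that were free of stains it was 2091 to 2369 in DDE livers and 1940 to 4204 in control livers, and the part of such cells in the results below was not tested. The 9 markers of stellate cells and fibroblasts summed to 9219 to 19480 in DDE livers and 11436 to 14229 in control livers. The sums of their 8 stain-free members did not overlap, with 6625 to 10775 in DDE livers and 11165 to 13586 in control livers. Such sums follow the brightest marker, Dcn (12.22 in DDE livers and 13.18 in control livers, limma adjusted p = 0.0767). By gene, only Dcn and Acta2 had lower means in DDE livers. The median change of the 9 was 0.34, with Col3a1 at 1.07 (adjusted p = 0.0877), and their part was not tested either. Reln, above background on 2 of 8 arrays, was the 1 marker of the 9 past the threshold (change 0.38, adjusted p = 0.0391). Summed endothelial markers ran from 11563 to 14232 in DDE livers and from 10824 to 16764 in control livers. Cholangiocyte markers ran from 989 to 1171 in DDE livers and from 1128 to 14206 in control livers, stained spots included. Over the 3 of these 6 that were free of stains the sums were 425 to 470 in DDE livers and 426 to 653 in control livers. Of the 6, 0 were above background on all 8 arrays. Cd79a and Ms4a1, which mark B cells, were above background on no array. In whole liver, a change in the number of cells of a type and a change in RNA per cell cannot be told apart.

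The comparison asks which defence genes differed after dietary p,p'-DDE. Of the 39 genes, 4 rose and 0 fell in the limma test with p-values adjusted over all 42957 probes (threshold 0.05). The 4 were Srxn1 and Gsr among the NRF2 targets and Cat and Nqo2 among the others. Against 10.3% of the 39 genes called higher, the share was 2.34% of all probes and 5.72% of named genes above background on all 8 arrays, and the shares called lower were 0.661% and 1.51%. At an unadjusted p under 0.05, 14 of the 39 were higher and 0 lower, beside 10.7% of all probes higher and 4.22% lower at that level. Among the named genes above background on all 8 arrays these shares were 23.0% and 7.77%. With the stained spots left out, 8 of the 39 rose and 0 fell, beside 3.21% of all probes called higher and 0.95% lower. The 4 added were Gclc, Gss, Prdx3 and Glrx. In the same fit 20.5% of the 39 were called higher, against 7.94% of the named genes above background on all 8 arrays, with 2.04% of those called lower. Leaving out spots beside bright spots as well also gave 8, with 3.26% of all probes called higher. With the mean of all probes of a gene, 6 rose, beside 2.72% of all named genes called higher.

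**Figure D1:**
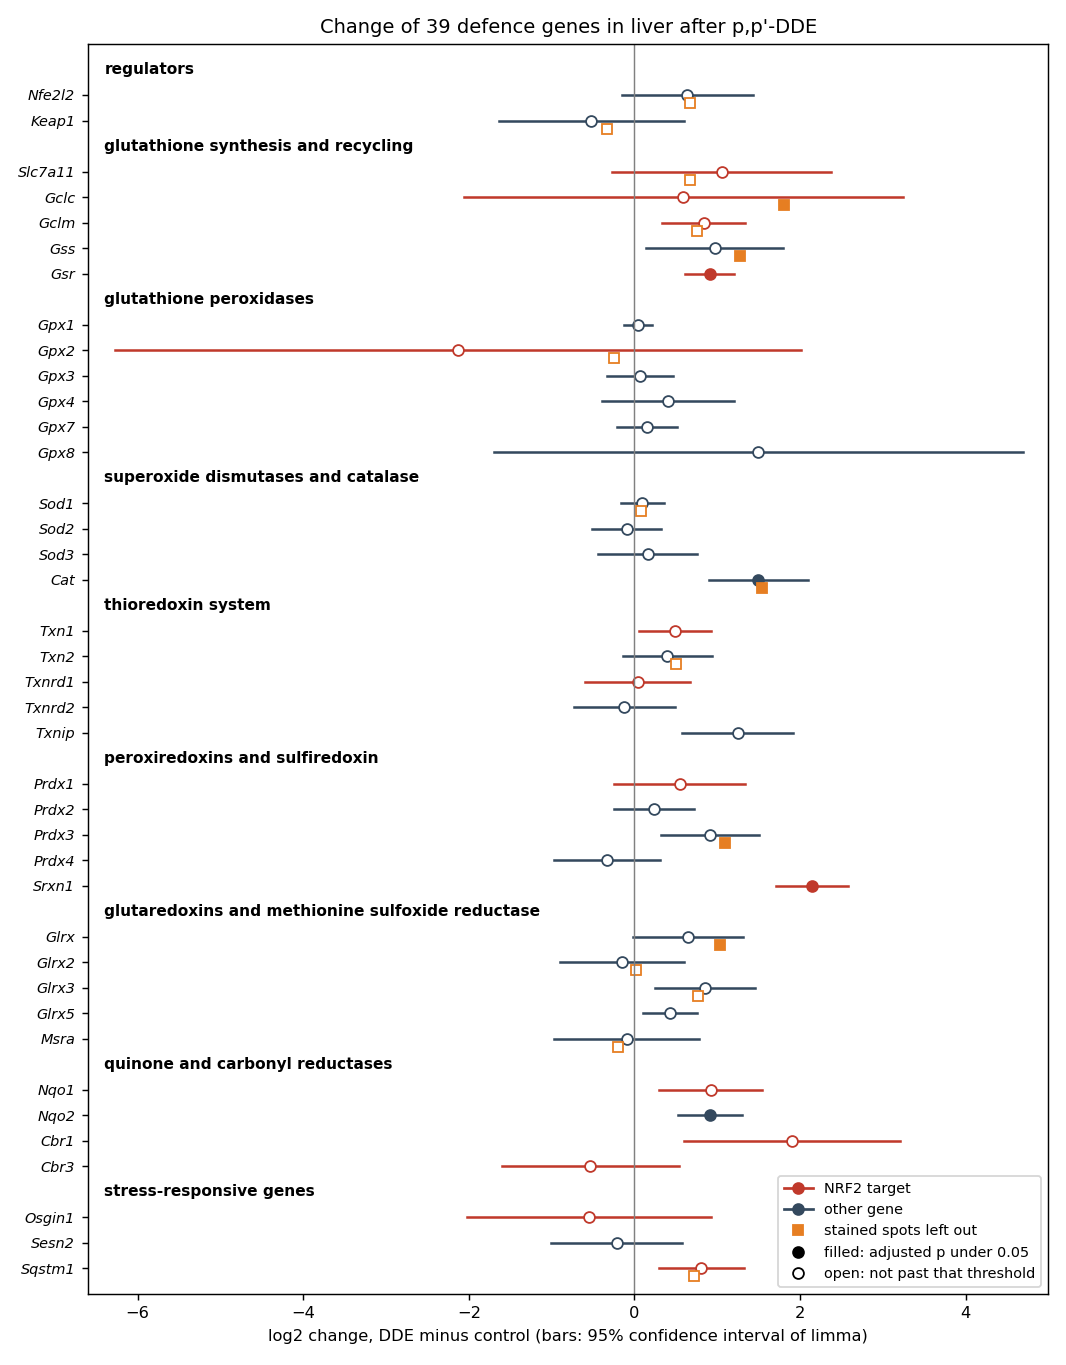
Each circle is the log2 change of a gene (DDE minus control, 4 livers each) with its 95% confidence interval, grouped by role, with NRF2 targets in red and other genes in dark blue. Orange squares show the change with stained spots left out, for genes that had any, and filled symbols passed an adjusted p of 0.05. Srxn1 lies at 2.14 with a narrow interval, while the interval of Gclc runs from -2.06 to 3.24 until its stained spot is left out.

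Srxn1 had the largest change of the 4 genes that rose. It encodes sulfiredoxin, which repairs peroxiredoxins whose active cysteine has been overoxidized, and it is a standard NRF2 target. Its signal was 12.13, 12.28, 12.94 and 12.19 in DDE livers 1 to 4, against 10.21, 10.30, 10.37 and 10.09 in control livers 1 to 4. The lowest DDE liver lay well above the highest control liver, and within each group the livers were close together. The change was 2.14 ± 0.19 on the log2 scale (SE, n = 4 each), a 4.42-fold rise (limma adjusted p = 0.00586). It still passed whichever of the 8 livers was dropped, with changes from 1.96 to 2.23 and adjusted p from 0.00153 to 0.0274. None of its 8 spots was stained.

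Glutathione synthesis and recycling covered 5 measured genes, all with higher means in DDE livers. Gsr rose with all values, and Gclc and Gss rose with their stained spots left out. Gsr encodes glutathione reductase, which turns oxidized glutathione back into the reduced form. Its signal was 13.64, 13.74, 13.95 and 13.54 in DDE livers, against 12.79, 12.73, 13.07 and 12.64 in control livers. The groups did not overlap, as was so for 10 of the 39 genes, all higher in DDE livers. Across all probes 8.0% were higher and 3.80% lower without overlap, and across the named genes above background on all 8 arrays 16% and 5.50%. The rise of Gsr was 1.88-fold (0.91 ± 0.13 on the log2 scale, limma adjusted p = 0.0172). It missed the threshold without control liver 2 (adjusted p = 0.0590) and without DDE liver 2 (0.0634). Its dimmer probe changed by 0.85 ± 0.26 and overlapped between the groups (adjusted p = 0.154).

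Gclc, the catalytic subunit of glutamate-cysteine ligase and the rate-limiting step of glutathione synthesis, turned on a single spot. Its signal was 10.17, 10.96, 11.21 and 10.72 in DDE livers, against 8.85, 8.96, 9.06 and 13.83 in control livers. Control livers 1 to 3 were close together and below all DDE livers, while control liver 4 was far above every other liver. The spots around Gclc on the array of control liver 4 deviated by a median of 4.83, and 6 of the 8 adjacent spots lay more than 2 from their usual values. With all 8 values the change was 0.59 ± 1.13 (limma adjusted p = 0.808). Without that spot, DDE livers averaged 10.77 ± 0.44 (SD, n = 4) and control livers 8.96 ± 0.11 (SD, n = 3). The rise was then 3.50-fold (1.81 ± 0.24, 95% interval 1.23 to 2.38, limma adjusted p = 0.0152). Leaving out the whole array of control liver 4 gave the same change with an adjusted p of 0.0250.

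Gclm, the modifier subunit of the same ligase, had 9.61, 9.72, 9.16 and 9.82 in DDE livers, against 9.07, 9.0, 8.37 and 8.53 in control livers. The groups did not overlap but lay close to each other, and the change of 0.84 ± 0.21 did not pass (limma adjusted p = 0.0950, and 0.138 without the stained spot of DDE liver 4). Gss, glutathione synthetase, which adds glycine in the last step, was chosen for its values in the fit without stained spots. It had 10.70, 11.16, 11.20 and 10.46 in DDE livers, against 10.83, 9.75, 9.87 and 9.20 in control livers. The high value of control liver 1 lay on a stained spot, whose surroundings deviated by 0.575, and the other 3 controls were below all DDE livers. Its change was 0.97 ± 0.35 with all values (adjusted p = 0.243) and 1.27 ± 0.24 without that spot (limma adjusted p = 0.0425, 3 controls), or 2.42-fold. Leaving out the whole array of control liver 1 gave the same change but missed the threshold (adjusted p = 0.0687).

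Slc7a11 encodes the cystine importer that feeds glutathione synthesis and is little used by hepatocytes. It was above background in 2 of 4 DDE livers and 0 of 4 control livers. Its signal was 7.24, 7.12, 9.37 and 9.17 in DDE livers, against 7.50, 7.13, 7.04 and 7.02 in control livers. The value of DDE liver 3 lay on a stained spot with surroundings at 1.51, while that of DDE liver 4 was not stained by the rule. The change of 1.05 ± 0.56 did not pass (limma adjusted p = 0.472), nor did the change without the stained spot (0.67, adjusted p = 0.602).

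**Figure D2:**
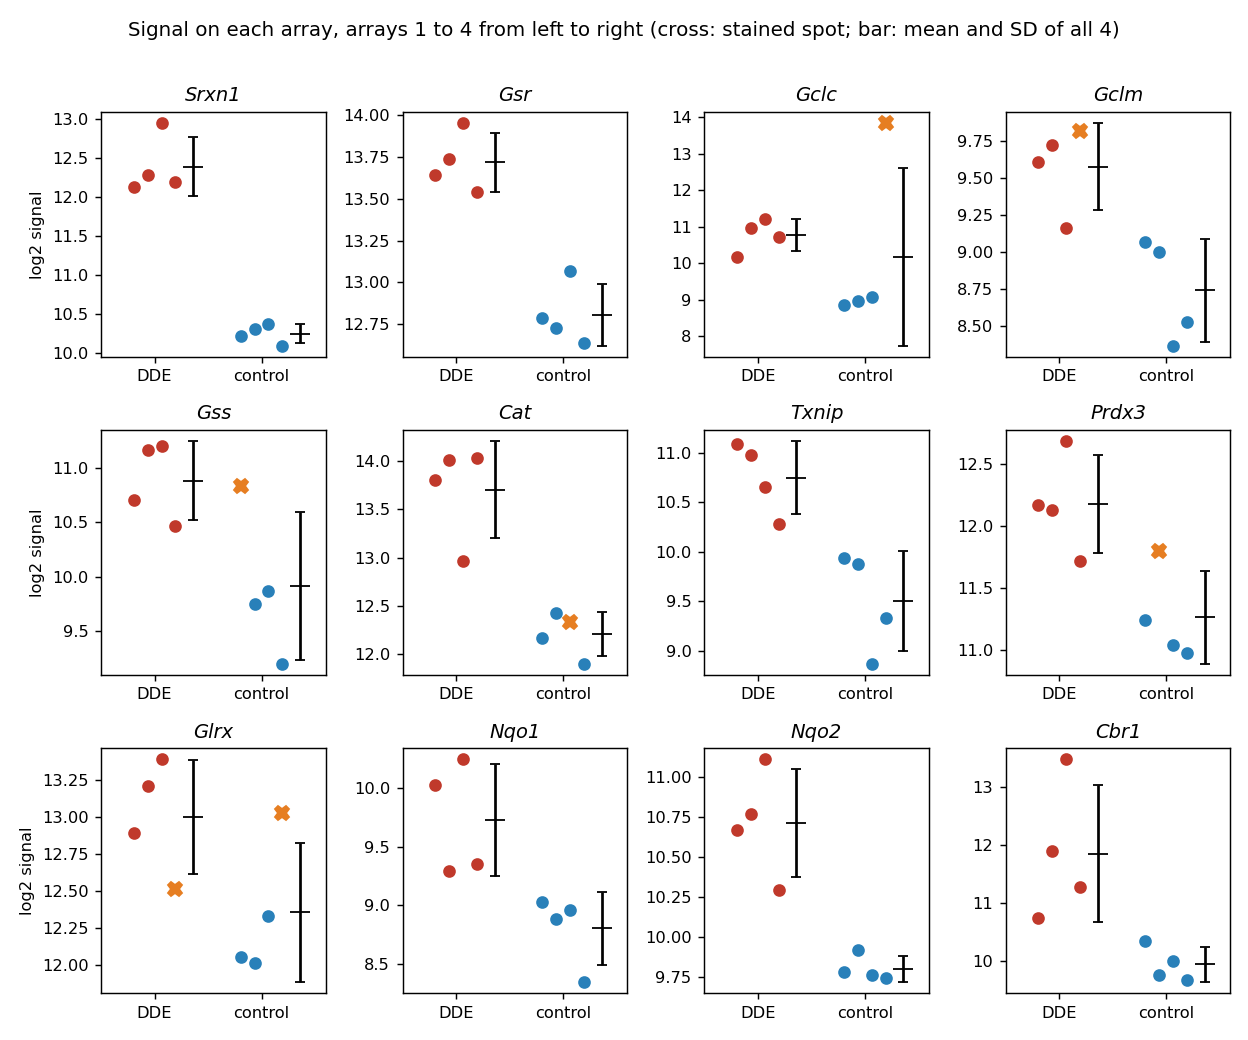
The log2 signal of 12 genes on each array, with DDE livers left of control livers, orange crosses for stained spots and bars for the mean and SD of all 4 livers. Srxn1, Gsr, Cat and Nqo2, which passed the test, separate the groups, and so do Gclm, Txnip, Nqo1 and Cbr1, which did not pass. The control values of Gclc at 13.83, Gss at 10.83 and Glrx at 13.03 are among the stained spots.

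Among the enzymes that remove superoxide and hydrogen peroxide, only Cat of 4 measured genes rose. Cat encodes catalase, the peroxisomal enzyme that splits hydrogen peroxide. It had 13.81, 14.01, 12.97 and 14.03 in DDE livers, against 12.17, 12.43, 12.33 and 11.90 in control livers. DDE liver 3 was clearly lower than the other DDE livers and still above all controls. The rise was 2.82-fold (1.5 ± 0.26, limma adjusted p = 0.0315), and 2.90-fold without the stained spot of control liver 3 (adjusted p = 0.0387). The call was lost in 7 of the 8 fits that left out 1 array, with adjusted p from 0.0522 (without DDE liver 4) to 0.0966 (without DDE liver 2), and it was 0.0156 without DDE liver 3. The other five were 0.0706, 0.0766, 0.0774 and 0.0588 without control livers 1 to 4 and 0.0889 without DDE liver 1. The dimmer Cat probe also separated the groups, with 12.76, 12.98, 12.39 and 12.60 in DDE livers and 11.95, 12.06, 11.41 and 10.83 in control livers (change 1.12, adjusted p = 0.0972).

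The 3 superoxide dismutases, which turn superoxide into hydrogen peroxide, did not pass. Sod2 of the mitochondrion had 12.73 ± 0.34 in DDE livers and 12.82 ± 0.16 in control livers (SD, n = 4), a change of -0.10 with a 95% interval of -0.51 to 0.32 (limma adjusted p = 0.804). Secreted Sod3 had 11.60 ± 0.49 in DDE livers and 11.44 ± 0.26 in control livers (change 0.16, adjusted p = 0.767). Cytosolic Sod1 had 15.79, 15.85, 15.98 and 15.52 in DDE livers, against 15.63, 15.84, 15.63 and 15.65 in control livers. All 8 of these values stood near the top of the scale, where a rise cannot be measured in full.

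Of the 6 glutathione peroxidases, 0 passed the limma test, and 0 also had an unadjusted p under 0.05. Gpx1, the abundant cytosolic form, was near the top of the scale with 15.99, 15.98, 15.98 and 15.76 in DDE livers, against 15.85, 15.93, 15.83 and 15.93 in control livers. Gpx4, which reduces lipid peroxides in membranes, had 13.40 ± 0.54 in DDE livers and 12.99 ± 0.50 in control livers (SD, n = 4, change 0.41, adjusted p = 0.633). Gpx3, the plasma form, and Gpx7 lay around background, with changes of 0.07 and 0.16.

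Gpx2 and Gpx8 each carried 1 extreme value. Gpx2, an NRF2 target best known from the gut lining, had 7.97, 7.53, 7.83 and 8.59 in DDE livers, against 9.34, 7.40, 15.74 and 7.95 in control livers. The 15.74 of control liver 3 lay on a stained spot with surroundings at 2.46, and the change was -2.13 with all values and -0.25 without that spot (limma adjusted p = 0.633 and 0.845). Gpx8, a form of the endoplasmic reticulum, had 7.46, 7.54, 7.38 and 13.42 in DDE livers, against 7.65, 7.36, 7.47 and 7.33 in control livers. DDE liver 4 alone was above background. Its surroundings deviated by 0.25, just inside the limit for a stain, and the change was 1.5 with all arrays and 0.01 without DDE liver 4 (limma adjusted p = 0.633 and 0.978).

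**Figure D3:**
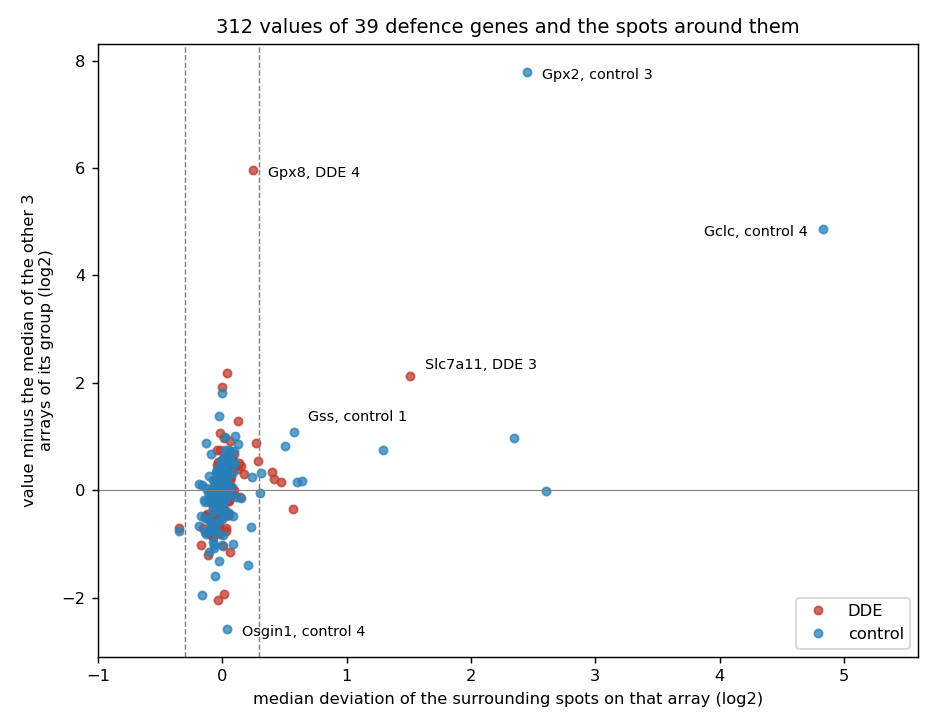
Each point is 1 of the 312 values, with the median deviation of the surrounding spots across and the distance from the median of the other 3 livers of its group upward, both on the log2 scale, and dashed lines at the limits for a stain. The control values of Gclc (surroundings 4.83) and Gpx2 (2.46) stand far to the right and high, while Gpx8 in DDE liver 4 stands high with surroundings at 0.25.

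Of the thioredoxin system, 0 of 5 genes passed in the limma test, while 2 had an unadjusted p under 0.05, both higher. Txnip, which binds and inhibits thioredoxin and answers to glucose, came nearest. Its signal was 11.09, 10.98, 10.65 and 10.28 in DDE livers, against 9.94, 9.88, 8.87 and 9.33 in control livers. The groups did not overlap, and the change was 1.25 ± 0.29, or 2.37-fold (adjusted p = 0.0749). Its second probe changed by 1.05 and also separated the groups, and the mean of both passed with a change of 1.15 (limma adjusted p = 0.0280). Cytosolic thioredoxin, Txn1, had 14.37, 14.36, 14.48 and 13.87 in DDE livers, against 13.86, 13.96, 13.93 and 13.36 in control livers. In both groups the liver numbered 4 was the low one. The change of 0.49 ± 0.18 did not pass (adjusted p = 0.259), and it passed without control liver 4 and DDE liver 4, the most stained array of each group (0.49, limma adjusted p = 0.0296).

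Thioredoxin reductase 1, Txnrd1, is an NRF2 target that keeps cytosolic thioredoxin reduced. It had 11.28, 11.33, 11.31 and 10.48 in DDE livers, against 10.66, 11.04, 11.63 and 10.92 in control livers. The control livers spanned the DDE livers almost entirely. Its change was 0.04 with a 95% interval of -0.60 to 0.67 (limma adjusted p = 0.954). The mitochondrial pair of reductase and thioredoxin did not pass either. Txnrd2 had 11.42, 11.21, 11.68 and 11.07 in DDE livers, against 11.76, 11.75, 11.63 and 10.73 in control livers (change -0.12, adjusted p = 0.828). Txn2 changed by 0.40 ± 0.23 (adjusted p = 0.506).

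Peroxiredoxins remove peroxides with thioredoxin as their partner, and 0 of the 4 measured passed at their brightest probe. Prdx3, the mitochondrial form, was the one with a call in another setting. Its brightest probe had 12.17, 12.13, 12.68 and 11.72 in DDE livers, against 11.24, 11.80, 11.04 and 10.98 in control livers. The high control value, of liver 2, lay on a stained spot with surroundings at 1.29, and the other 3 controls were below all DDE livers. Its change was 0.91 ± 0.25 (limma adjusted p = 0.121), and 1.09 ± 0.22 without that spot (adjusted p = 0.0475, 3 controls). Leaving out the whole array of control liver 2 gave the same change but missed the threshold (adjusted p = 0.0941). Prdx3 had 10 probes listed under 1 accession. All 10 were higher in DDE livers, by 0.17 to 1.07 with a median of 0.77, and 1 of the 10 passed. The mean of the 10 rose by 0.74 ± 0.12 (limma adjusted p = 0.0222). Whether these probes are repeats of 1 sequence was not tested, so they are not counted as separate measurements.

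The remaining peroxiredoxins gave smaller changes. Prdx1, a cytosolic form and NRF2 target, had 13.94 ± 0.44 in DDE livers and 13.40 ± 0.58 in control livers (SD, n = 4, adjusted p = 0.546). Its other probe changed by 0.68 (adjusted p = 0.375). Prdx2, plentiful in red blood cells, changed by 0.24 and Prdx4 of the endoplasmic reticulum by -0.33 (limma adjusted p = 0.633 for both).

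**Figure D4:**
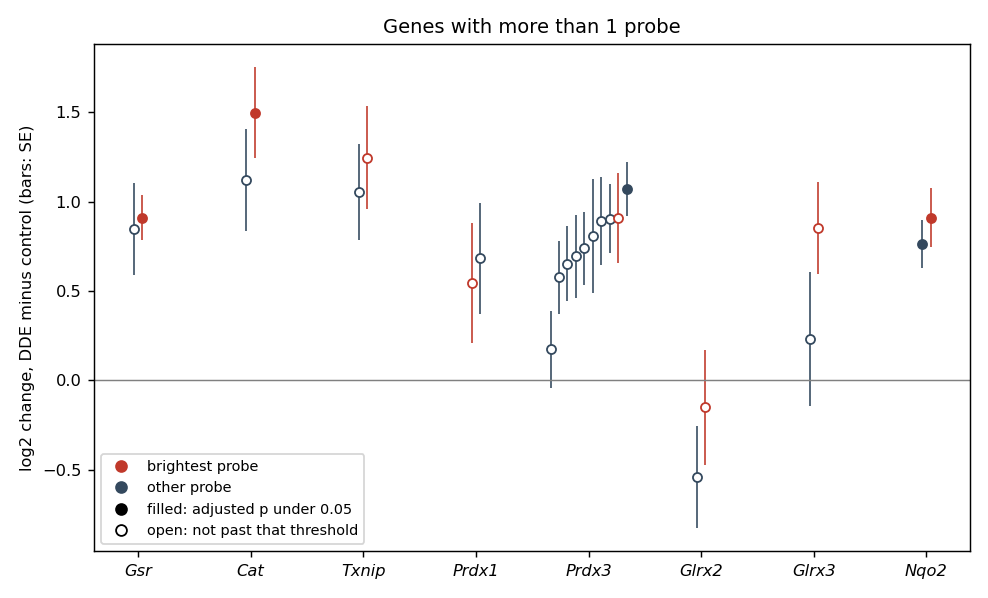
The log2 change (DDE minus control) and its SE for every probe of the 8 genes that had more than 1, with the brightest probe in red and filled symbols for an adjusted p under 0.05. All 10 probes of Prdx3 lie above 0, both probes of Nqo2 are filled, and both probes of Glrx2 lie below 0 without passing.

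Glutaredoxins use glutathione to reduce disulfides or to carry iron-sulfur clusters, and 0 of the 4 passed with all values, while 2 had an unadjusted p under 0.05, both higher. Glrx, the cytosolic disulfide reductase, had 12.89, 13.21, 13.39 and 12.51 in DDE livers, against 12.05, 12.01, 12.33 and 13.03 in control livers. The values of both livers numbered 4 were stained, the control one with surroundings at 2.35 and the DDE one at -0.35. The 3 other DDE livers lay above the 3 other controls. Its change was 0.65 ± 0.28 with all values (limma adjusted p = 0.351) and 1.03 ± 0.16 without both spots, a 2.05-fold rise (adjusted p = 0.0327, 3 livers a group). Glrx3, which handles iron-sulfur clusters, had 13.42, 12.83, 13.21 and 12.87 in DDE livers, against 12.54, 12.74, 11.86 and 11.79 in control livers. The groups did not overlap and the change was 0.85 ± 0.26 (adjusted p = 0.152). Without the stained spots of both livers numbered 4 it was 0.77 (limma adjusted p = 0.241). The second probe of Glrx3 changed by 0.23, and by 0.57 without the stained spot of control liver 1 (adjusted p = 0.282). Glrx5, its mitochondrial counterpart, had 13.59, 13.56, 13.90 and 13.64 in DDE livers, against 13.16, 13.18, 13.59 and 13.03 in control livers (change 0.43, adjusted p = 0.181). Glrx2 changed by -0.15 and Msra, which repairs oxidized methionine, by -0.10 (adjusted p = 0.825 and 0.911).

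Of the 4 quinone and carbonyl reductases, 1 rose, and 3 were higher at an unadjusted p under 0.05. Nqo2, a quinone reductase that draws on nicotinamide riboside cofactors, rose, while Nqo1, the usual marker of NRF2 activity, did not pass. Nqo2 had 10.67, 10.77, 11.11 and 10.29 in DDE livers, against 9.78, 9.92, 9.76 and 9.74 in control livers. The controls were close together and below all DDE livers. The rise was 1.88-fold (0.91 ± 0.17, limma adjusted p = 0.0372), and its second probe, near background, rose by 0.76 (adjusted p = 0.0326). The call on the brightest probe was lost in 7 of the 8 fits that left out 1 array. Their adjusted p was 0.0802, 0.0865, 0.0992 and 0.0720 without control livers 1 to 4, and 0.0939, 0.113 and 0.0575 without DDE livers 1 to 3, against 0.0146 without DDE liver 4.

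Nqo1 had 10.02, 9.29, 10.24 and 9.35 in DDE livers, against 9.03, 8.88, 8.96 and 8.35 in control livers. The groups did not overlap, and DDE livers 2 and 4 were close to the controls. Its change was 0.92 ± 0.26, as large as that of Nqo2 but with a wider 95% interval of 0.30 to 1.54 (limma adjusted p = 0.133, and 0.0942 to 0.294 over 18 alternatives). The difference between Nqo1 and Nqo2 was not tested. Cbr1, a carbonyl reductase of quinones and prostaglandins, had 10.75, 11.90, 13.47 and 11.28 in DDE livers, against 10.35, 9.77, 10.00 and 9.68 in control livers. DDE liver 3 was far above the other DDE livers, and the groups did not overlap. The change was 1.90 ± 0.56 with all livers (adjusted p = 0.140) and 1.36 without DDE liver 3 (adjusted p = 0.104). Cbr3 was around background, with 7.69 ± 0.23 in DDE livers and 8.22 ± 0.96 in control livers (SD, n = 4, adjusted p = 0.633).

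The regulators of the pathway did not pass. Nfe2l2 had 10.72, 11.08, 11.69 and 10.29 in DDE livers, against 10.46, 9.69, 10.66 and 10.41 in control livers. DDE livers 1 to 3 were above all controls and DDE liver 4 was within them, and the change was 0.64 ± 0.34 (limma adjusted p = 0.462). The spot of control liver 4 was stained by a small margin, with surroundings at 0.305. Keap1 had 10.75, 9.81, 9.46 and 9.34 in DDE livers, against 11.11, 10.92, 10.09 and 9.32 in control livers. Both groups spread widely and overlapped (change -0.52 ± 0.48, adjusted p = 0.633). Without the stained spot of control liver 2 the change of Keap1 was -0.33 (limma adjusted p = 0.797). These are transcript levels, whereas NRF2 is controlled mainly through the stability of the protein.

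Among the stress-responsive genes 0 of 3 passed, and Sqstm1 alone had an unadjusted p under 0.05. Sqstm1 encodes the autophagy receptor p62, which binds KEAP1. It had 12.40, 12.60, 12.16 and 12.75 in DDE livers, against 11.96, 12.03, 11.49 and 11.19 in control livers. The groups did not overlap, but the change of 0.81 ± 0.22 did not pass (limma adjusted p = 0.117). Without the stained spot of DDE liver 4 the change was 0.72 (adjusted p = 0.170). Osgin1, an oxidative stress and growth inhibitor gene and NRF2 target, had 14.21, 13.14, 12.88 and 13.25 in DDE livers, against 14.65, 14.32, 14.65 and 12.07 in control livers. Control liver 4 was far below the other controls on an unstained spot with surroundings at 0.04, and those 3 were above all DDE livers. The change was -0.55 with all livers and -1.17 without control liver 4 (adjusted p = 0.671 and 0.138). Sesn2, which links stress to nutrient signalling, changed by -0.22 (adjusted p = 0.763).

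Set side by side, 2 of 14 NRF2 targets (14.3%) and 2 of 25 other genes (8%) rose, and 0 of either fell. Called higher were 2.34% of all probes and 5.72% of named genes above background on all 8 arrays, so the share of the others was near the latter. The median change was 0.70 for the targets and 0.24 for the others, against 0.02 over all probes and 0.14 over named genes above background on all 8 arrays. Restricted to genes above background on all 8 arrays, the medians were 0.81 for 11 targets and 0.32 for 22 others. Higher means in DDE livers were found for 11 of the 14 targets and 18 of the 25 others, beside 53.5% of all probes and 61.6% of named genes above background on all 8 arrays. No overlap between the groups, always with DDE livers higher, was found for 6 of the 14 targets (42.9%) and 4 of the 25 others (16%), beside 8.0% of all probes and 16% of named genes above background on all 8 arrays. With stained spots left out, 3 targets (21.4%) and 5 others (20%) rose, with medians of 0.70 and 0.24. In that fit 3.21% of all probes and 7.94% of named genes above background on all 8 arrays were called higher. A wider reading of NRF2 targets adds Cat, Sesn2, Gss and Nfe2l2. With all values it gave 3 risen of 18 (16.7%) with a median of 0.73, against 1 of 21 (4.76%) with a median of 0.16. The difference between the sets was not tested.

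Among the targets, Srxn1, Gsr and, without its stained spot, Gclc rose. The values of Txnrd1 (0.04), Osgin1 (-0.55) and Cbr3 (-0.53) did not pass, and no difference among targets was tested. Dropping 1 array at a time gave -1.17 to -0.31 for Osgin1 and -0.82 to -0.078 for Cbr3. DDE liver 3 gave the highest unstained DDE value for 7 of the 14 targets and 13 of the 25 others, and for 37.6% of the named genes above background on all 8 arrays. The same liver gave the lowest unstained DDE value for 4 of the 14 targets, 7 of the 25 others and 25.7% of those named genes. Srxn1, Gsr, Gclc, Nqo1, Nqo2, Cbr1 and Nfe2l2 were highest in DDE liver 3 among the DDE livers. Lowest there were the targets Gclm, Prdx1, Sqstm1 and Osgin1, and Cat among the others.

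Further genes of the pathway came from lists outside the 42. Of 25 other NRF2 targets, 7 rose and 0 fell in the limma test (at an unadjusted p under 0.05 there were 10 higher and 0 lower), with a median change of 0.41. The share of all probes called in either direction was 3.00%. Called higher were 2.34% of all probes and 5.72% of named genes above background on all 8 arrays. At an unadjusted p under 0.05 the shares higher were 10.7% and 23.0%. The 7 were Me1 (1 of its 3 probes), Pgd, Abcc3, Aox1, Gstm3 (1 of its 2 probes), Pir and Ces1g, and Abcc3 and Gstm genes are also known to answer to the xenobiotic receptor CAR. Ephx1, Gstm1, Mgst1, Fth1 and Ftl1 stood near the top of the scale on all 8 arrays, where a rise cannot be measured in full. With the mean of all probes of a gene, 9 of the 25 rose and 0 fell, beside 2.72% of all named genes called higher. Gstm1, Ephx1 and Gsta4 then passed and Gstm3 did not (limma adjusted p = 0.00515, 0.0410, 0.0175 and 0.469). Aox1, an aldehyde oxidase, rose 2.41-fold (adjusted p = 0.0119), Pir, an iron-binding nuclear protein, 2.92-fold (0.0310) and the carboxylesterase Ces1g 2.99-fold (0.0420). Of 26 other thiol and disulfide enzymes, 1 rose and 0 fell, a count near the called shares of 2.34% and 5.72%. The 1 gene was Blvrb, an NADPH-dependent flavin and biliverdin reductase, with 13.30 in DDE livers and 11.43 in control livers. Its rise was 3.64-fold (limma adjusted p = 0.0152).

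Among 11 partners and repressors of NRF2, 1 rose and 0 fell. Called higher were 2.34% of all probes and 5.72% of named genes above background on all 8 arrays, so 1 gene shows little about the list. That gene was Cul3, the scaffold of the ubiquitin ligase that KEAP1 guides to NRF2, which rose 1.45-fold (limma adjusted p = 0.0215). Of 23 other genes of glutathione turnover and 12 sources of hydrogen peroxide or superoxide, 0 passed in either direction. Unadjusted p under 0.05 was found for 3 higher and 2 lower genes of the turnover list, and for 2 higher and 3 lower genes among the sources. Over all probes the shares at that level were 10.7% higher and 4.22% lower, and over named genes above background on all 8 arrays 23.0% and 7.77%, so the count of higher turnover genes was near the background. Hao2, a peroxisomal oxidase that makes hydrogen peroxide, was above background in 0 of 4 control livers and passed with its stained spot left out (limma adjusted p = 0.0144, 3 DDE livers). It was listed by 10 probes, and 8 of the 10 passed with all values.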

How the data were processed

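Cy3-labelled cRNA was made from 50 ng of total liver RNA, per the labels' protocols. The deposited table holds log2 signals made by the authors. How the signals were scanned, background-corrected and normalized is unstated in the sources used here, and the log2 scale was read from the values. Probes were joined to genes by the platform annotation supplied with the data (33009 probes with 1 symbol, 0 with several, 9948 with none). Probes were designed on reference mouse sequence and may bind Mus spretus RNA less well.

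The test was limma 3.58.1 (lmFit and eBayes, R 4.3.3) on every probe, DDE against control, two-sided, with Benjamini-Hochberg adjustment over 42957 probes. Changes are DDE minus control with the SE of limma. The only depth measure is signal over background: the 0.95 quantile of 1634 olfactory and vomeronasal receptor probes, stained spots left out, which the plan had kept (with them it reached 9.91). Spot positions were taken from probe numbers, 85 to a row, and stains from the deviations of the neighbours (7 rows, 5 columns, own spot left out), taken as a median. The fit was tested on simulated data. Nothing in the labels says that replicate numbers pair mice.

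Values on each array are given for genes past the threshold, the 8 next by p, 4 genes fixed by name (Nfe2l2, Keap1, Gclc, Txnrd1) and those with a liver far from its group. Gss, Glrx, Slc7a11, Gpx2 and Hao2 were added after their values were seen. The 42 genes and the lists were chosen with earlier results of these data known. The planned search of promoters for the NRF2 motif was not run here. Alternatives were other normalizations, filters, variance models, probe rules, a replicate block, leaving out arrays, stained spots and a wider target list. Leaving out both livers numbered 4, and spots beside bright spots, were added after seeing the data.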

Additional observations from a re-analysis of the deposited data

Results flagged for a closer look

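A liver stood apart from the other 3 of its group, by Dixon's 95% critical value for 4 samples, in 8 of the 78 groups of 4 values, or 10.3%. Chance flags about 1 in 20 groups, and over the brightest probe of every named gene the share was 14.1% in DDE livers and 15.7% in control livers. Only the value of Gclc in control liver 4 (13.83) lay on a stained spot. Gpx8 stood at 13.42 in DDE liver 4, with surroundings at 0.25. On the low side were Txnrd1 in DDE liver 4 (10.48) and Gpx1 in DDE liver 4 (15.76, near the top of the scale). In control liver 4, Txn1 (13.36), Txnrd2 (10.73) and Osgin1 (12.07) were low. Sod1 was high in control liver 2 (15.84), also near the top of the scale.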

How the results depend on the processing

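Over 18 alternatives for each of the 39 genes (702 values), 648 kept their direction and side of the threshold, 22 lost the threshold, 14 gained it and 18 turned their sign, none of these past the threshold. Of 42957 probes, 1289 passed with the values as deposited and 511 with an intensity trend and robust variances. Leaving out arrays gave 332 to 1708 probes. Of 22471 named genes, 775 passed with the mean of the probes of a gene and 766 with 1 probe per gene. The bases differ, so these counts do not compare directly. Called higher were 2.72% of genes with the mean of probes and 2.34% of probes with the values as deposited. The 4 genes of the group past the threshold became 8 without stained spots, under both stain rules, and 1 to 6 without arrays, with 6 only when both livers numbered 4 were left out. The 2 NRF2 targets became 1 to 4 without arrays. The 2 other genes became 1 with the intensity trend (Nqo2 lost, adjusted p = 0.0721 by limma), 4 with the mean of probes, 5 under both stain rules, 1 with the wider target list and 0 to 2 without arrays.

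With the replicate number as a block, 9 probes passed, and 0 of the 39 genes, 0 NRF2 targets and 0 others. Srxn1 then had an adjusted p of 0.0541 by limma. Departures of the signals from probe averages, not the signals themselves, were correlated between DDE and control livers. For livers of the same number the correlations were 0.0911, 0.0275, 0.0441 and -0.0104 over 18087 probes. For different numbers the range was -0.0813 to 0.0492. Correlations this weak cannot decide whether livers of a number share an effect. The labels name no pairs, so the main fit has no block.

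The sign turned for Glrx2 without stained spots (0.017, both rules). Over the fits without arrays, changes ran from -0.0325 to 0.17 for Gpx3, -0.033 to 2.02 for Gpx8, -0.21 to 0.093 for Sod2, -0.087 to 0.38 for Sod3, -0.10 to 0.24 for Txnrd1, -0.49 to 0.017 for Glrx2, -0.39 to 0.21 for Msra and -0.48 to 0.0083 for Sesn2. The cause was not tested. Gpx3, and Gpx8 outside DDE liver 4, lay around background, while the other genes named here were away from both ends of the scale. As a separate limit, with 4 livers a group, dim probes near background and bright probes near the top of the scale had limited room to differ.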
